A study of Homo sapiens with 4 samples.

Results

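Integrins and the cytoplasmic proteins of focal adhesions were followed in GIST-T1 cells after transfection of a miR-34a mimic. The members were every gene on the array named ITGA or ITGB followed directly by a number or by E, L, M, V or X, together with 16 named genes of the focal adhesion (PTK2, PTK2B, PXN, VCL, TLN1, TLN2, ZYX, ILK, PARVA, LIMS1, FERMT1, FERMT2, FERMT3, BCAR1, TNS1 and SRC). This rule gave 41 of 36337 gene names, with 59 of 50599 probes. They comprise 17 alpha subunits, 8 beta subunits and the 16 cytoplasmic proteins. Each gene was read from the probe with the highest mean signal.

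GIST-T1 is a human cell line from a gastrointestinal stromal tumor, and all 4 samples were the same line, grown in Dulbecco's medium with fetal bovine serum. In each transfection, 3000000 cells received 100 pmol of RNA by electroporation, either a miR-34a mimic, a synthetic RNA that supplies miR-34a activity (2 arrays), or a negative control RNA (2 arrays). Total RNA was taken 48 h later, and 100 ng was labelled with Cy3 and hybridized to a 1-colour Agilent array. The labels number the replicates but do not say whether they came from separate cultures, so p-values measure only the spread between these arrays, which may be technical.

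Integrins are heterodimers of an alpha and a beta subunit that span the plasma membrane and bind matrix proteins such as fibronectin, laminin and collagen. On the inner side, talins and kindlins bind the beta tail and switch the receptor to its active state, vinculin, zyxin and tensin tie the complex to actin, and focal adhesion kinase, SRC and their adaptors pass on signals. A microRNA lowers messages that carry a match to its seed, most often in the 3' untranslated region. The labels do not name the arm of the mimic. The main mature product of the miR-34a gene, taken from RefSeq, is shown because its seed (bases 2 to 8, in capitals) defines the match sought below, and it lies at chr1:9151735-9151756 on the minus strand of GRCh38.p14.
hsa-miR-34a-5p: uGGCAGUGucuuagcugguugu
The DNA letters sought in the probes were CACTGCC, which pair with this seed, or ACTGCCA, shifted by 1 base. None of the 59 member probes held either (0 of 59). On the whole array 354 probes did, or 0.7%, and at that share few if any of 59 would. A probe covers only 60 bases of a message, so this says nothing of the rest of each transcript.

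Values are log2 processed signals relative to the 75th percentile of all probes of the same array, and a difference is the mimic mean minus the control mean on that log2 scale. A level can be compared between arrays for the same probe, not between probes. A probe entered the test if both arrays of either condition read it well above background. Between 41.8% and 45.2% of all probes were detected on an array, and precision is limited by there being only 2 arrays a condition.

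The cells were checked against markers of their own and other types. All 5 markers of GIST (KIT, ANO1, ETV1, PRKCQ and CD34) were detected on all 4 arrays. Their summed signal, relative to the 75th percentile on a linear scale, was 167 and 171 with the mimic and 237 and 237 in the control. The probe of KIT had the highest signal of the 5 and weighed most in this sum. ANO1 differed by -0.06, ETV1 by -0.07 and PRKCQ by -0.23, none past the test. KIT differed by -0.70 (adjusted p = 0.0948 by limma) and CD34 by 0.37 (adjusted p = 0.133 by limma), and with limma's prior variance following the signal level their adjusted p was 0.00705 and 0.0407. Of the epithelial markers, EPCAM was detected on all 4 arrays and CDH1 and KRT20 on none. Of the endothelial markers, PECAM1 was detected on no array, VWF on 1, and CDH5 on both control arrays and neither mimic array. With the lowest detected signal of each mimic array in place of its own, CDH5 was 1.54-fold lower with the mimic. CDH5 passed the filter only through the control arrays, where it was higher. Its fitted difference had an adjusted p of 0.0948 by limma, and of 0.11 with the prior variance following the signal level. Of the platelet markers, PF4, PPBP and GP1BA were detected on no array and GP9 on 3. The part of these markers in the members' differences was not tested.

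Of the 41 members, 30 were tested, and 29 of these were detected on all 4 arrays. The other 11 were detected on no array: the collagen receptor subunits ITGA1, ITGA2 and ITGA10, the platelet subunits ITGA2B and ITGB3, ITGA8, the leukocyte subunits ITGAL and ITGAX, the alpha V partners ITGB6 and ITGB8, and FERMT1, the kindlin of epithelia. The signal of ITGB3, a core partner of alpha V, was -5.18 and -5.12 with the mimic and -5.17 and -5.13 in the control, not well above background in either. Among the tested members were 10 alpha subunits, 5 beta subunits and 15 cytoplasmic proteins.

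No member passed the test. By limma with Benjamini-Hochberg adjustment over all probes tested, 0 of 30 members had an adjusted p under 0.05, as did 0 of the 16184 genes tested (0%). The smallest adjusted p of a member by limma was 0.0948, which was also the smallest of all genes tested and was shared by several genes. At an unadjusted p under 0.05, 6 members were lower with the mimic (20%, against 11.9% of all genes tested) and 5 were higher (16.7%, against 13%). The 6 were ITGAM, ITGA6, ITGA9, FERMT2, FERMT3 and VCL, and the 5 were ITGA7, ITGA11, ITGB4, ILK and SRC. With the variance trend, in which limma's prior variance follows the signal level, 3 members were called, FERMT2 and VCL lower (6.67%, against 3.95% of all genes) and ITGA7 higher (3.33%, against 4.28%). The methods' t-test, the plain test that the study names for continuous variables, gave 6 members at an unadjusted p under 0.05 and 0 after adjustment. The share of all genes by that t-test is not given here, so the 6 cannot be set beside it.

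The differences were small. Lower signals with the mimic were found for 14 members and higher signals for 16, with a median difference of 0.0071, beside -0.0066 over all genes tested. The median size of the difference was 0.198, beside 0.15, and 21 of 30 members (70%) lay within 1.2-fold, beside 71.9% of all genes. More than 1.5-fold separated the conditions for 1 member that was lower, ITGAM (3.33%, against 4.79% of all genes tested), and for 1 that was higher, ITGB4 (3.33%, against 1.95%).

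Both mimic arrays lay below both control arrays for 11 members (36.7%, against 30.6% of all genes) and above them for 8 (26.7%, against 31.3%), and for the other 11 the conditions overlapped. For a single gene in this design the smallest two-sided p of an exact permutation test is 0.33.

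**Figure D1:**
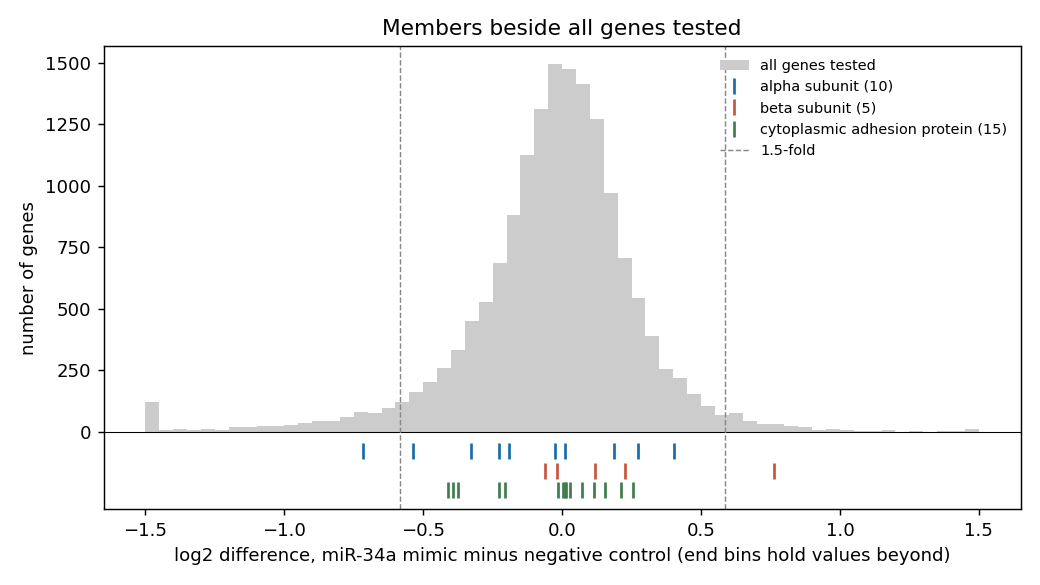
Number of genes (vertical axis) by log2 difference, miR-34a mimic minus negative control (horizontal axis), for the 16184 genes tested, with the tested members as coloured ticks under the histogram, 10 alpha subunits, 5 beta subunits and 15 cytoplasmic proteins. The dashed lines mark 1.5-fold, and 1 tick lies beyond each.

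The alpha subunits had a median difference of -0.11, with 6 of the 10 tested lower and 4 higher, beside 51.3% of all genes tested lower. ITGAM, the alpha subunit of the complement receptor of myeloid cells, had the most negative difference of the members tested. Its signal was -2.24 and -2.21 on the mimic arrays and -1.47 and -1.54 on the control arrays. Both mimic arrays were below both controls, and the replicates lay close together, which its selection by small p favours. The level was dim on every array. The difference was -0.72 (SE 0.058, 2 arrays a condition, adjusted p = 0.0948 by limma), or 1.64-fold, and with normexp, a background correction that starts from the raw signals, it was -0.29, under 1.5-fold. The probe lies at chr16:31343816-31343875 (hg19, plus strand).

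The leukocyte markers given here were also dim. Of the 3 leukocyte markers given here, CD14 was detected on all 4 arrays, CD3E on 3 and PTPRC on 2. Their summed signal, relative to the 75th percentile on a linear scale, was 0.514 and 0.494 with the mimic and 0.483 and 0.553 in the control. CD3E differed by -0.28 and CD14 by 0.48, neither past the test, and the part of leukocyte genes in the difference of ITGAM was not tested. In bulk RNA, fewer cells that carry a message and less of it in each cell cannot be told apart. The partner of ITGAM, ITGB2, differed by 0.23 (95% interval -0.43 to 0.88).

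The other subunits of leukocyte integrins that could be tested were ITGAE and ITGB7, which form one receptor for E-cadherin. ITGAE was not dim, with 3.34 and 3.32 with the mimic and 3.29 and 3.35 in the control. It differed by 0.01 (95% interval -0.15 to 0.18). ITGB7 differed by -0.02 (-0.41 to 0.37), which turned to 0.15 with quantile normalization. The conditions overlapped for both.

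The laminin receptor subunits did not share a direction. ITGA6, which pairs with ITGB1 or ITGB4, gave 0.15 and 0.14 with the mimic and 0.48 and 0.46 in the control. Both mimic arrays were lower, with a difference of -0.33 (SE 0.053, adjusted p = 0.102 by limma), or -0.21 with normexp, and a dimmer probe of the same gene gave -0.32 with an interval that spans 0 (-0.86 to 0.22). ITGA7, the laminin receptor subunit of muscle, gave 1.34 and 1.16 with the mimic and 0.83 and 0.87 in the control. The conditions did not overlap, and the mimic arrays were higher by 0.40 (SE 0.085, adjusted p = 0.127 by limma and 0.0492 with the variance trend). ITGA3, the third alpha subunit that binds laminin, differed by 0.19 (95% interval -0.11 to 0.48).

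ITGB4, the beta subunit of the laminin receptor of hemidesmosomes, was detected only on the mimic arrays. Its signal was -2.53 and -2.22 with the mimic and -3.31 and -2.97 in the control, where it was not well above background. The fitted difference was 0.76 (SE 0.178, adjusted p = 0.138 by limma). Set against the higher of its own signal and the lowest detected signal of each control array, it was 1.65-fold higher with the mimic. This holds on the main scaling and is not a lower limit. It passed the filter only through the condition in which it was higher, and with normexp background correction the difference was 0.18. Among the 3 epithelial markers, EPCAM was detected on all 4 arrays and was also higher, by 0.41 (adjusted p = 0.189 by limma), CDH1 and KRT20 were detected on none, and the summed signal of the 3 was 0.299 and 0.364 with the mimic and 0.261 and 0.262 in the control. The part of these markers in the difference of ITGB4 was not tested.

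**Figure D2:**
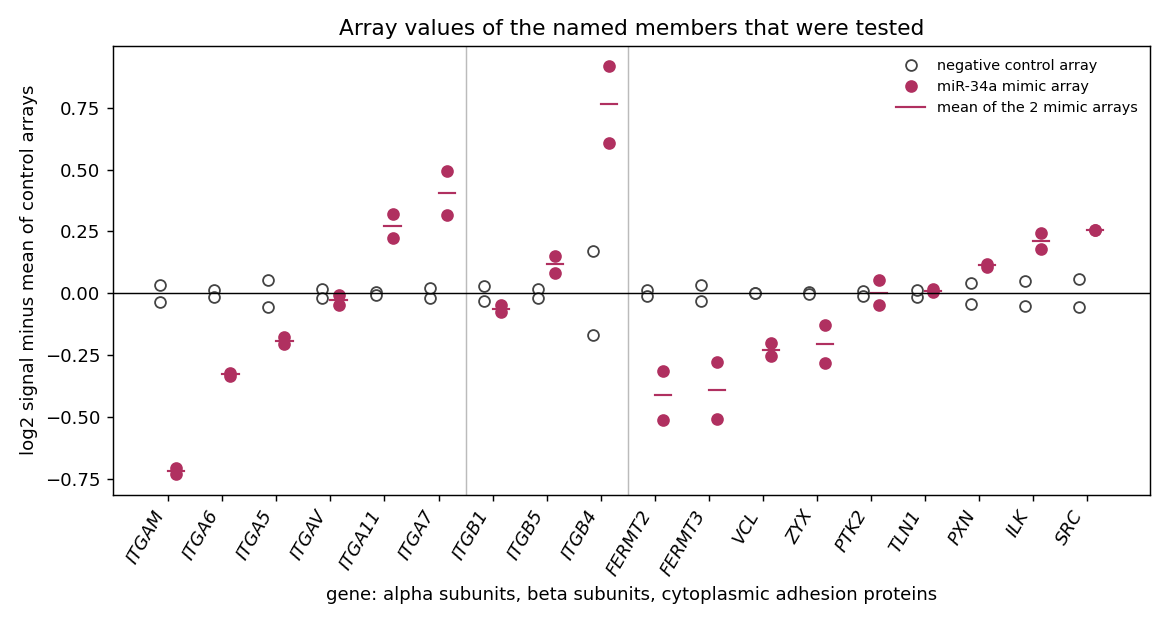
Signal of each array (vertical axis, log2 signal minus the mean of the 2 negative control arrays of that gene) for the 18 named members that were tested, grouped as alpha subunits, beta subunits and cytoplasmic adhesion proteins. Open circles are control arrays, filled circles mimic arrays, and short lines the mimic means, which run from -0.72 for ITGAM to 0.76 for ITGB4.

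ITGB1, ITGA5, ITGAV and ITGB5, subunits of fibronectin and vitronectin receptors, differed by less than 1.2-fold. The common subunit ITGB1, shared by most integrins of adherent cells, gave 1.75 and 1.78 with the mimic and 1.86 and 1.79 in the control, a difference of -0.06 (95% interval -0.23 to 0.11). ITGA5, which forms the classical fibronectin receptor with ITGB1, gave 2.33 and 2.30 with the mimic and 2.45 and 2.56 in the control. Its mimic arrays were both lower, with a difference of -0.19 (SE 0.067, adjusted p = 0.21 by limma).

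ITGAV, which binds vitronectin and fibronectin with several beta partners, gave 2.87 and 2.83 with the mimic and 2.90 and 2.86 in the control. The conditions overlapped, with a difference of -0.03 (95% interval -0.19 to 0.13). ITGB5 was the only partner particular to alpha V that was detected, and gave 6.12 and 6.19 with the mimic and 6.06 and 6.02 in the control, a difference of 0.12 (95% interval -0.05 to 0.29), or 0.19 with quantile normalization. The intervals of ITGB1, ITGA5, ITGAV and ITGB5 all lay within 1.5-fold.

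The sequence behind the ITGB1 value is shown because this subunit is shared by more receptors than any other member. The 60 bases of the probe lie at chr10:33200507-33200566 (hg19, minus strand) and hold no capitals, as no part is singled out.
ITGB1 probe: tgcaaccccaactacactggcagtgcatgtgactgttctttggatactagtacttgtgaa

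Among the remaining alpha subunits, ITGA11, a collagen receptor subunit of mesenchymal cells and the only one of its kind detected, gave -0.48 and -0.58 with the mimic and -0.80 and -0.81 in the control. Each mimic array exceeded each control array, with a mean difference of 0.27 (SE 0.063, adjusted p = 0.137 by limma), or 0.14 with normexp. ITGA4, which binds fibronectin and VCAM1, differed by -0.54 with a wide interval (-1.29 to 0.22), and its other probes gave -0.35 and -0.71. ITGA9, which binds tenascin and VCAM1, differed by -0.23 (-0.46 to -0.0011). All 3 probes of ITGA4 were lower on average, but in the most widely spread of them the replicates of the mimic differed by 1.49.

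The integrin activators were the cytoplasmic group with the lowest median, -0.38 over the 4 tested by their chosen probes. Of these, 3 were lower and 1 higher, beside 51.3% of all genes tested that were lower. FERMT2 (kindlin-2), the kindlin of mesenchymal cells, gave 2.53 and 2.73 with the mimic and 3.05 and 3.03 in the control. Both mimic arrays were lower, with a difference of -0.41 (SE 0.091, adjusted p = 0.131 by limma and 0.0405 with the variance trend). Its second probe, which is designed on another transcript, gave -0.07 and -0.05 with the mimic and -0.09 and 0.11 in the control, a difference of -0.07 (95% interval -0.33 to 0.19), and the mean of the probes gave -0.24.

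FERMT3 (kindlin-3), known from blood cells, gave -1.18 and -1.41 with the mimic and -0.87 and -0.94 in the control. The mimic arrays lay below the controls, with a difference of -0.39 (SE 0.103, adjusted p = 0.154 by limma), or -0.21 with normexp. Its probe is 1 of 4 member probes whose 60 bases span more than 60 bases of the genome, between chr11:63988599-63990565 (hg19, plus strand), and it is shown, without capitals, because bases from either side of a gap in the genome are joined in it.
FERMT3 probe: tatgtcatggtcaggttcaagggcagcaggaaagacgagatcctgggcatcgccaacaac

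The talins gave no uniform picture. TLN1, the talin of most cells, gave 0.61 and 0.63 with the mimic and 0.59 and 0.63 in the control, a difference of 0.01 (95% interval -0.14 to 0.17). Its dimmer second probe gave -0.47 with an interval from -1.47 to 0.53, and the mean of the probes was -0.23. TLN2 differed by -0.37 (-0.98 to 0.24), and its mimic replicates were 0.54 apart.

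Vinculin, zyxin and tensin, which link adhesions to actin, all had lower means with the mimic by their chosen probes, as did 51.3% of all genes tested. VCL gave 3.37 and 3.31 with the mimic and 3.57 and 3.57 in the control. The control arrays were nearly identical and both mimic arrays were lower, with a difference of -0.23 (SE 0.055, adjusted p = 0.144 by limma and 0.0441 with the variance trend), or 1.17-fold. ZYX gave 4.64 and 4.49 with the mimic and 4.77 and 4.77 in the control, a difference of -0.20 (95% interval -0.43 to 0.02), or -0.13 without miR-34a mimic replicate 2. TNS1 differed by -0.02 (-0.23 to 0.20), and its second probe by 0.16 (-0.33 to 0.65).

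The 250 bases upstream of the start sites of VCL and FERMT2, which were the lower members called with the variance trend, are shown as RefSeq gives them on GRCh38.p14, with motif matches in capitals. They lie at chr10:73997866-73998115 (plus strand) and chr14:52951051-52951300 (minus strand).
VCL upstream: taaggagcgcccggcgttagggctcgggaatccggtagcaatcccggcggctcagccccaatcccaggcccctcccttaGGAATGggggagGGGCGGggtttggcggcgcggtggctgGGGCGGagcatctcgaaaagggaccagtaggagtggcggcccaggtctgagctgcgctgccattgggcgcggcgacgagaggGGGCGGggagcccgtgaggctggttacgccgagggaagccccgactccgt
FERMT2 upstream: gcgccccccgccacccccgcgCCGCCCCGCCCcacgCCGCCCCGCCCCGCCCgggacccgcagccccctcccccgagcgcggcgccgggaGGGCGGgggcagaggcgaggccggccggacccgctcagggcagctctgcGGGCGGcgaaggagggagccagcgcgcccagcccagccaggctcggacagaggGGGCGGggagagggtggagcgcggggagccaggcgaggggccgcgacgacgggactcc
The motifs sought, on both strands, were the GC box (GGGCGG), the core of the TEAD motif (GGAATG), the AP-1 motif (TGANTCA) and the CArG box of SRF. VCL held 3 GC boxes and 1 TEAD core, and FERMT2 held 8 GC boxes, some of which overlap each other by 1 base. Of the 28 member genes with an entry, 18 held a GC box in at least 1 of 46 windows, 6 a TEAD core, 3 an AP-1 motif and 1 a CArG box. By window, 54.3% of the members' windows held a GC box, against 42.6% of all 35116 windows, 15.2% against 11.9% a TEAD core, 6.52% against 6.57% an AP-1 motif and 2.17% against 1.16% a CArG box. A match of letters is not a site of binding.

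**Figure D3:**
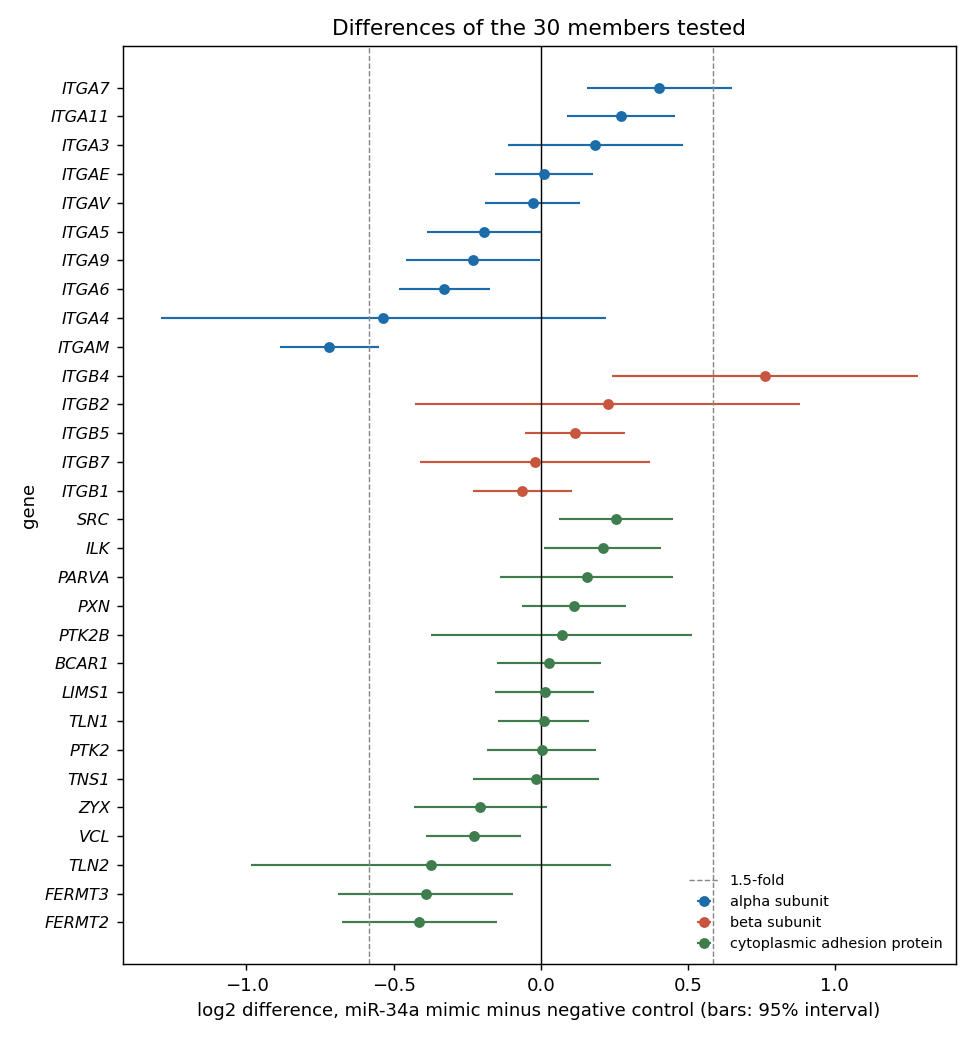
Log2 difference, miR-34a mimic minus negative control (horizontal axis), with its 95% interval from limma as a bar, for the 30 members tested (vertical axis), coloured by class and ordered by value within it. The dashed lines mark 1.5-fold, and the intervals of 19 members include 0.

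The ILK complex, made of ILK, PINCH (LIMS1) and parvin (PARVA), had higher means for all 3 genes, as did 7881 of the 16184 genes tested. ILK gave 3.34 and 3.41 with the mimic and 3.22 and 3.11 in the control. The mimic arrays lay above the controls, by 0.21 (SE 0.068, adjusted p = 0.193 by limma). PARVA differed by 0.16 (95% interval -0.14 to 0.45) and LIMS1 by 0.01 (-0.15 to 0.18), and for these the conditions overlapped.

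The kinases and adaptors that signal from adhesions lay near 0 by their chosen probes, with SRC the farthest. SRC gave -1.68 and -1.68 with the mimic and -1.998 and -1.884 in the control. Both mimic arrays were higher, by 0.26 (SE 0.067, adjusted p = 0.152 by limma), and by 0.08 with normexp. PTK2 (focal adhesion kinase) gave 2.65 and 2.56 with the mimic and 2.61 and 2.59 in the control, a difference of 0.00 (95% interval -0.18 to 0.19) that lay on either side of 0 depending on the scaling, and its second probe gave -0.12 (-0.30 to 0.06).

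PXN (paxillin), the scaffold on which PTK2 and vinculin meet, gave 3.42 and 3.40 with the mimic and 3.34 and 3.25 in the control, a difference of 0.11 (95% interval -0.06 to 0.29). Its second probe, detected on 3 arrays, gave 0.36 (-0.29 to 1.01), and the mean of the probes 0.24. Without negative control replicate 2, the chosen probe gave 0.07. BCAR1 (p130Cas) differed by 0.03 (-0.15 to 0.20). PTK2B (PYK2) differed by 0.07 (-0.37 to 0.52), and its second probe by 0.26 (-0.04 to 0.56).

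**Figure D4:**
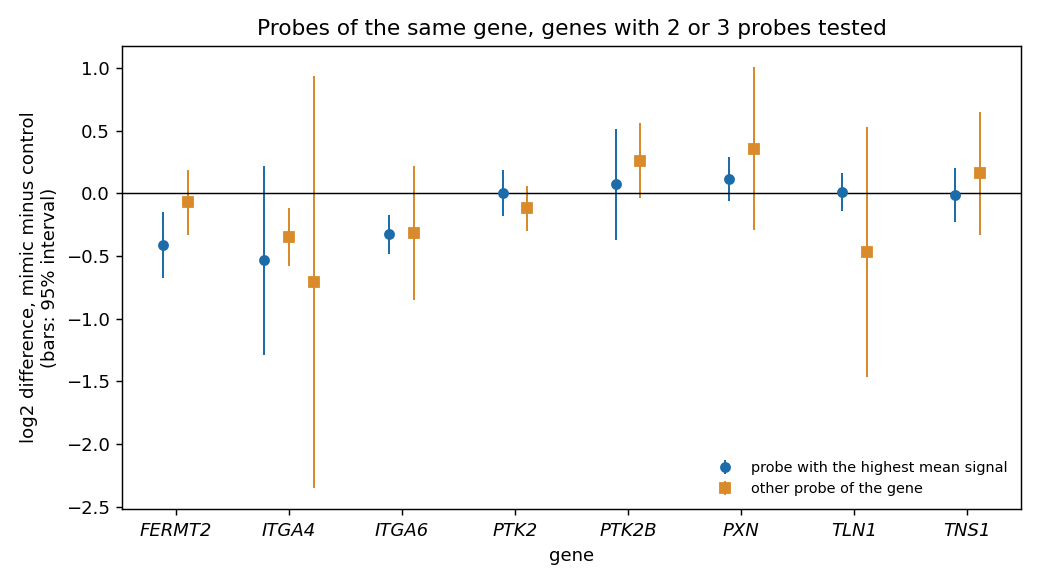
Log2 difference, miR-34a mimic minus negative control (vertical axis, bars are 95% intervals from limma), of each tested probe of the 8 members with more than 1 tested probe. The probe with the highest mean signal is a circle and the others are squares, and the probes lay on both sides of 0 for PTK2, TLN1 and TNS1.

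The wider set of adhesion genes, 69 on the array from ligands to small GTPases, also lay on both sides of the control. Of its 61 tested genes, 32 were lower and 29 higher, with a median of -0.0088. None had an adjusted p under 0.05 by limma (0 of 61), 9 were lower and 10 higher at an unadjusted p under 0.05 (14.8% and 16.4%, against 11.9% and 13% of all genes tested), and with the variance trend 6 were lower and 5 higher (9.84% and 8.2%, against 3.95% and 4.28%). None was lower by more than 1.5-fold, against 4.79% of all genes, and 1 was higher (1.64%, against 1.95%).

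That gene was CD9, a tetraspanin that associates with integrins. It gave 1.43 and 1.42 with the mimic and 0.85 and 0.79 in the control, a difference of 0.60 (adjusted p = 0.0948 by limma and 0.0141 with the variance trend). CAV1 (caveolin-1), the coat protein of caveolae, gave 0.71 and 0.74 with the mimic and 0.14 and 0.15 in the control. Its difference was 0.58 (adjusted p = 0.0948 by limma and 0.0176 with the variance trend). The groups did not overlap for either gene, which their selection by small p favours. Of the 7 tested integrin-associated membrane proteins, 6 had higher means with the mimic, as did 7881 of the 16184 genes tested.

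Actin linkers of the wider set lay on both sides of the control. ACTN4 (alpha-actinin-4), which crosslinks actin, gave 1.83 and 1.81 with the mimic and 1.45 and 1.40 in the control, a difference of 0.40 (adjusted p = 0.0954 by limma and 0.0224 with the variance trend). PDLIM7, a LIM protein of actin fibres, gave 3.94 and 3.98 with the mimic and 4.47 and 4.43 in the control, a difference of -0.49 (adjusted p = 0.0948 by limma and 0.0102 with the variance trend). VASP, which extends actin filaments and binds zyxin, gave 2.70 and 2.70 with the mimic and 3.04 and 3.02 in the control, a difference of -0.33 (adjusted p = 0.102 by limma and 0.0211 with the variance trend). Replicates of these 3 genes lay closer together than the conditions did, which their selection by small p favours. The integrin ligands had lower means in 7 of 9 tested genes (5 of 9 with quantile normalization), beside 51.3% of all genes tested. Their median was -0.06, and the small GTPases lay between -0.07 and 0.16.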

How the data were processed

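Each sample was read on 1 Agilent array, and all 4 arrays were on 1 slide and in 1 scan, so neither could serve as a block. The authors deposited the intensity of every spot from Agilent Feature Extraction (10.7 in the processing notes, 10.7.3.1 in the file headers), background-subtracted but not scaled between arrays, and a table holding the same intensity values, which lay within 0.5% of them and had 0 columns without a mapped sample. Spots with an outlier flag were left out, spots of a probe were averaged, and each array's 75th percentile was subtracted on the log2 scale. A probe counted as detected if at least a share of 0.5 of its spots was well above background. limma 3.58.1 (lmFit and eBayes, R 4.3.3, version 1.17.8 of data.table) with Benjamini-Hochberg adjustment was fitted on 21474 probes, 16184 genes after choosing 1 probe a gene. In simulated data with 200 changed probes (log2 change of 2) among 21453, it recovered 150, with 6 false calls. On the real arrays the same test called 0 of the 16184 genes, whose differences ran from -6.38 to 2.45. The recovery in simulated data therefore does not describe these arrays. The tested members differed by -0.72 to 0.76, less than the planted change, so it does not describe changes of their size either. Upstream windows were searched with Python 3.11.15 and pandas 2.3.3. Array gene names and hg19 positions were used, and 38 of 41 members were matched to RefSeq by accession.

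One leukocyte marker of the list is not reported here, and the summed signal leaves it out. The members, lists and tests were chosen with earlier results of these data known. Named genes were those past 1.5-fold, the 10 with the smallest unadjusted p and 14 core genes, and from the wider set those past 1.5-fold or among the 5 smallest p. Alternatives were normexp (offset 50), quantile normalization, a percentile over detected probes, other filters, the mean of a gene's probes, the authors' table, a variance trend, the methods' t-test, a replicate block and leaving out each array. SDs of the log2 difference between replicates were 0.337 (mimic) and 0.29 (control).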

Additional observations from a re-analysis of the deposited data

How the results depend on the processing

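The 0 members called at an adjusted p under 0.05 by limma stayed at 0 under every alternative run except the variance trend, which called 3, and the methods' t-test called 0. Of the repeats of the named members' differences, 241 kept both direction and side of the threshold, 3 passed it (FERMT2, VCL and ITGA7 with the variance trend) and 7 reversed. Over leaving out each array, PTK2 ranged from -0.0456 to 0.0521 and TLN1 from -0.0047 to 0.0263. PTK2 reversed to -0.0023 with normexp, -0.0047 with the percentile over detected probes, -0.0575 with the mean of its probes, -0.0456 without miR-34a mimic replicate 1 and -0.0064 without negative control replicate 2, and TLN1 to -0.2294 with the mean of its probes and -0.0047 without negative control replicate 1. The cause of these was not tested.

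With normexp, 0 members were lower and 0 higher by more than 1.5-fold, 0 genes of the wider set were higher, and the median of the beta subunits was 0.0081. Without a filter on dim probes, 4 members were lower, 2 genes of the wider set were lower and 2 higher, and the medians were -0.0184 for the members, -0.1912 for the alpha and -0.0092 for the beta subunits. The share of all genes past 1.5-fold without the filter is not given here, so these counts cannot be set beside it. With only probes detected on all arrays, ITGB4 drops out and 0 members were higher. The median of the wider set was 0.0401 with quantile normalization and -0.0519 with the mean of a gene's probes. The scalings moved the median of all tested probes by less than 0.1, to between -0.0157 and 0.0195.

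Leaving out each array in turn gave 1 to 2 members lower (2 without either mimic array and without negative control replicate 1), 0 to 1 genes of the wider set lower (1 without negative control replicate 1) and 1 to 2 higher (2 without miR-34a mimic replicate 1). Medians ranged from -0.0465 to 0.0216 for the members, from -0.0064 to 0.1347 for the beta subunits, from -0.0456 to 0.0216 for the cytoplasmic proteins and from -0.0036 to 0.0201 for the wider set, so that these signs are not settled by 4 arrays. An arm left with 1 array was assumed to vary like the other, and shares of all genes past 1.5-fold are not given for these fits.

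Deviations of same-numbered arrays correlated at -0.028 over the probes tested. The labels do not say whether same-numbered arrays were made together, and no pairing was assumed. With the replicate number as a block, 0 members were called, and 8 had an unadjusted p under 0.05 in place of 11. The share of all genes with the block is not given here, so the 8 cannot be set beside it.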
